A study of Mus musculus with 4 samples.

Results

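The genes described here are 10 genes of the osteoclast and of its coupling to bone-forming cells, taken by symbol from the 23946 symbols that each of the 4 deposited tables lists. The list was given by name, without a threshold on any value, and holds the ligands and decoy receptor made by skeletal cells (*Tnfsf11*, *Csf1*, *Il6*, *Tnfrsf11b*), the receptors of the osteoclast precursor (*Tnfrsf11a*, *Csf1r*), the transcription factor *Nfatc1*, and the products of the mature osteoclast (*Ctsk*, *Acp5*, *Calcr*). RNA was measured by bulk RNA-seq in CD51+;CD200+ cells, labelled as skeletal stem cells, of wild-type CD-1 mice on postnatal day 3. The cells came from 3 sutures, posterior frontal (called PF), sagittal (called SAG), and coronal (called COR), and from the growth plate (GP) of the tibia, which served as the reference. Of these sutures PF is the one that closes in young mice. Each tissue is 1 library of cells pooled from many mice, and the mice carried no allele or treatment. The sort also required absence of CD105, 6C3, both Thy1 antigens, Tie2, Ter119, and CD45, the last being the gate against blood-derived cells, the lineage of the osteoclast. Replicate error could not be estimated from single libraries, no p-value is given, and a difference between tissues cannot be told apart from a difference between libraries.

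The sorting antigens were read as transcripts first. *Itgav*, the gene of CD51, measured 6.20 to 14.99 FPKM and *Cd200* 23.5 to 62.6, while *Ptprc* (CD45), *Tek* (Tie2), and *Thy1* stayed below 1 FPKM in every library. *Enpep*, the gene of 6C3, lay at 1.39 to 7.05 FPKM and *Eng*, that of CD105, at 0.679 to 1.70, so transcripts of both were present in cells sorted as negative for the proteins.

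Osteoclasts are the bone-resorbing cells of the monocyte lineage. Cells of the skeletal lineage control their formation through CSF1, which keeps precursors alive through its receptor CSF1R, and through RANKL, the product of *Tnfsf11*, which binds RANK (*Tnfrsf11a*) and leads to activation of NFATC1, the master transcription factor of the osteoclast. Osteoprotegerin, the product of *Tnfrsf11b*, is a secreted decoy that captures RANKL. In growing bone, hypertrophic chondrocytes, osteoblasts, and osteocytes are known sources of RANKL. Factors passing back from the osteoclast to the bone-forming cell are called coupling factors.

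Values are FPKM, fragments scaled by transcript length and by mapped fragments, so levels can be set beside each other between genes. Ratios between tissues were taken as log2(FPKM + 1) differences, in which low genes show less than their true change, and 3-fold on that scale, 1.58 in log2, was the size at which a gene was counted as different, without a test. Where 4 values follow each other without names, they stand in the order PF, SAG, COR, GP. Of the 10 genes, 1 FPKM was reached by 5 in PF, by 6 in SAG and in COR, and by 7 in GP, and *Tnfrsf11a*, *Csf1r*, and *Calcr* stayed below 1 FPKM in every library. Of all 23946 symbols, 11826 (PF), 12263 (SAG), 11402 (COR), and 11789 (GP) reached it, and 13998 did so in at least 1 library. The number of fragments behind a value was estimated from the step that 1 fragment makes in FPKM times transcript length, which also gave PF 43.9% of the depth of SAG, the deepest library, COR 87.6%, and GP 83.6%. These estimates take the longest coding transcript as the length, and the intervals drawn from them cover counting error only, since reads without molecular identifiers are not independent molecules.

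**Figure D1:**
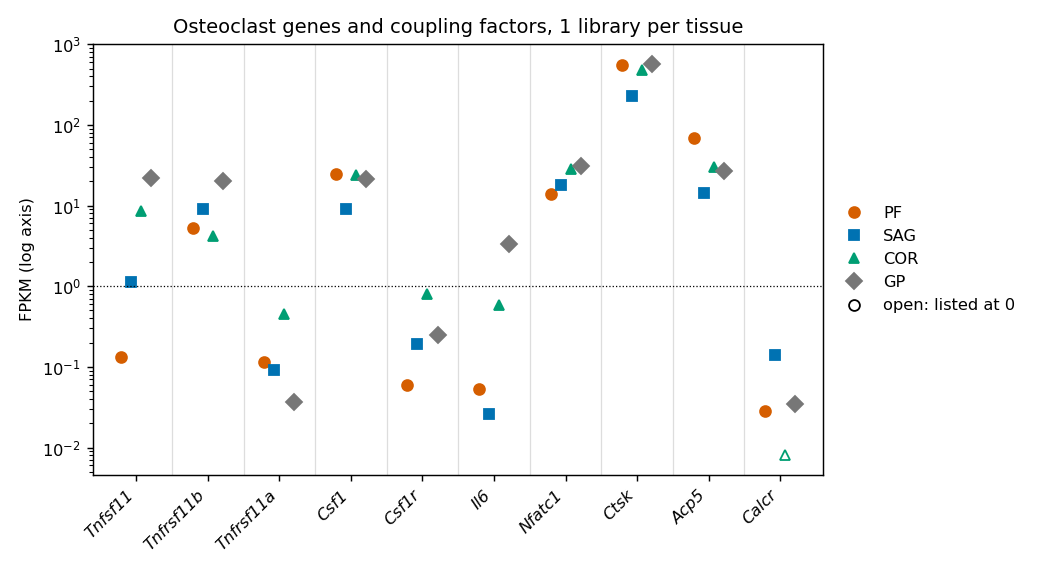
FPKM of the 10 genes on a log axis, with 1 point per library (PF, SAG, COR, GP); the dotted line marks 1 FPKM, and an open point marks a gene listed at 0. *Tnfsf11* runs from 0.134 FPKM in PF to 21.8 in GP, while *Ctsk* lies between 229 and 576 in every library.

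*Tnfsf11*, the gene of RANKL (mm9 chromosome 14, 78677252 to 78707850), had the widest spread of the 10 genes. PF had 0.134 FPKM, SAG 1.14, COR 8.56, and GP 21.8. The order was GP, COR, SAG, PF, and each neighbour in that order differed by more than counting error. The PF value rests on about 5 fragments, with an exact Poisson 95% interval of 1.62 to 11.7 fragments, compared with about 97 (SAG), 636 (COR), and 1543 (GP). The FPKM of COR was 63.7 times that of PF, with an exact binomial interval of 27.1 to 197, and 7.52 times that of SAG, with an interval of 6.07 to 9.41. The FPKM of GP was 162 times that of PF (69.2 to 499) and 2.54 times that of COR (2.32 to 2.79). On the log2(FPKM + 1) scale the ratio for PF vs COR was -3.08, that for COR vs SAG 2.16, and the others were 4.33 for GP vs PF and 3.41 for GP vs SAG, all past 3-fold. The remaining ratios were -0.91 for PF vs SAG and 1.25 for GP vs COR, both short of 3-fold. The PF vs SAG call depends on the pseudocount, since SAG had 8.47 times the FPKM of PF (3.51 to 26.7) and the log2 ratio was -2.40 with a pseudocount of 0.1, past 3-fold. Across the 4 libraries the range was 4.33, and 1.20% of the 13998 genes at 1 FPKM or more in some library had a wider one. Ranked by level within its library, *Tnfsf11* was gene 14340 (PF), 12077 (SAG), 6474 (COR), and 3790 (GP).

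*Tnfrsf11b*, the gene of osteoprotegerin (chromosome 15, 54082174 to 54110039), was present in every library and followed another order. PF had 5.26 FPKM, SAG 8.94, COR 4.24, and GP 20.1. GP was the highest, and COR, which stood next to GP for *Tnfsf11*, was the lowest. The log2 ratio was 2.01 for GP vs COR and 1.75 for GP vs PF, both past 3-fold, and 1.09 for GP vs SAG. Scaled to *Gapdh*, the ratio for GP vs PF was 1.34 and short of 3-fold. Between the sutures it stayed within 3-fold, with PF vs SAG at -0.67, PF vs COR at 0.26, and COR vs SAG at -0.93.

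The ratio of *Tnfsf11* to *Tnfrsf11b* FPKM within a library does not change when all values of that library are multiplied by a constant. It was 0.0256 in PF, with an exact binomial 95% interval of 0.00823 to 0.0605. It was 0.127 in SAG (0.102 to 0.157), 2.02 in COR (1.78 to 2.30), and 1.08 in GP (1.01 to 1.16). Transcripts of the decoy receptor thus outnumbered those of the ligand 39.1 to 1 in PF and 7.86 to 1 in SAG. The ligand was above the decoy in COR and about level with it in GP. A ratio between genes also rests on the transcript length given to each, which the intervals do not cover. The side of 1 on which GP lies is therefore not readable. The 4 intervals did not overlap, and the highest ratio was 79.1 times the lowest. With 1 FPKM added to both genes the ratio was 0.181 (PF), 0.215 (SAG), 1.83 (COR), and 1.08 (GP). PF and SAG were then closer together and both still below 1. SAG and COR, the sutures that do not close, were on opposite sides of 1, with COR 15.9 times SAG. Protein was not measured.

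**Figure D2:**
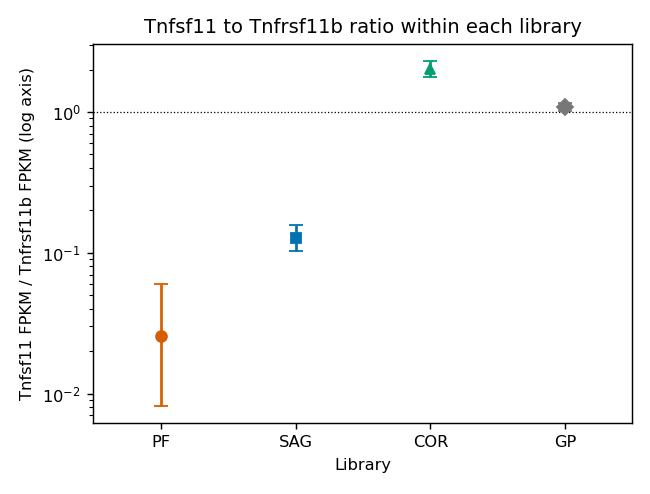
Ratio of *Tnfsf11* FPKM to *Tnfrsf11b* FPKM within each library on a log axis; bars are exact binomial 95% intervals from the estimated fragments and cover counting error only, and the dotted line marks a ratio of 1. PF (0.0256) and SAG (0.127) lie below 1, COR (2.02) lies above it, and GP (1.08) lies near it.

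Markers of bone and cartilage cells moved with *Tnfsf11* in part. The summed FPKM of 7 osteoblast markers was 2731 (PF), 887 (SAG), 11845 (COR), and 8181 (GP). The libraries with the most *Tnfsf11* thus had the largest sums, while PF had a larger sum than SAG and less *Tnfsf11*. *Spp1* made up most of each sum, at 1649, 617, 8324, and 6882 FPKM. *Alpl* (461 and 258 FPKM), *Bglap* (426 and 159), and *Runx2* (18.9 and 18.1) were higher in PF than in GP. *Sp7*, *Ibsp*, *Spp1*, and *Dmp1* were lower in PF than in GP. All 7 osteoblast markers were at 1 FPKM or more in every library. The summed FPKM of 7 chondrocyte markers was 116 (PF), 3133 (SAG), 382 (COR), and 3251 (GP). *Col10a1*, the collagen of hypertrophic chondrocytes, reached 600.5 FPKM in GP, against 1.44 in PF, 0.813 in SAG, and 1.08 in COR. *Ihh*, the hedgehog ligand of prehypertrophic cartilage, lay at 0.136, 0.381, 6.48, and 44.0 FPKM, the libraries taken as PF, SAG, COR, GP. It was the only chondrocyte marker with the order of *Tnfsf11*. *Mmp13* had 28.9, 346, 298, and 605 FPKM, with SAG above COR, and *Sox9*, *Col2a1*, and *Matn1* were highest in SAG. The part of these cells in the *Tnfsf11* values was not tested, and in bulk RNA fewer cells of a type and less RNA per cell cannot be told apart.

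*Csf1*, the macrophage colony-stimulating factor (chromosome 3, 107543966 to 107563387), showed a different pattern, with SAG apart from the rest. PF had 24.4 FPKM, SAG 8.99, COR 23.8, and GP 21.5. PF, COR, and GP lay within 0.18 of each other on the log2 scale. SAG was below them by 1.35 (PF), 1.31 (COR), and 1.17 (GP) in log2, none of which passed 3-fold. PF, the library with the least *Tnfsf11*, was level with COR for *Csf1*, at 1.03 times its FPKM (exact binomial interval 0.968 to 1.09).

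*Il6*, an inflammatory cytokine that also raises osteoclast formation through stromal cells (chromosome 5, 30339701 to 30346508), reached 1 FPKM in GP alone. PF had 0.0531 FPKM, SAG 0.0260, COR 0.587, and GP 3.31. About 1 fragment stood behind each of the PF and SAG values, 21 behind COR, and 114 behind GP. The order of PF and SAG is therefore not readable at this depth. The log2 ratio was 2.03 for GP vs PF and 2.07 for GP vs SAG, both past 3-fold, and 1.44 for GP vs COR, which became 2.31 and past 3-fold with a pseudocount of 0.1. As FPKM, GP was 5.64 times COR, with an exact binomial interval of 3.52 to 9.46, 62.3 times PF (11.0 to 2483), and 127 times SAG (22.4 to 5069).

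*Tnfsf11* and *Il6* were the ligands among the 10 genes that were past 3-fold both for GP vs PF and for GP vs SAG, so the 250 bases upstream of their RefSeq start sites are shown. The sequences were taken from RefSeq (GRCm38.p6) and found once each by exact match on the same chromosome of mm9, at chr14:78707851-78708100 on the minus strand for *Tnfsf11* and at chr5:30339404-30339653 on the plus strand for *Il6*. Capitals mark matches on either strand to 4 motifs that were searched: AP-1 (TGANTCA), NF-kB (GGG, any 2 bases, then TTTCC), RUNX (TGTGGT), and the TATA box (TATAAA).
Tnfsf11: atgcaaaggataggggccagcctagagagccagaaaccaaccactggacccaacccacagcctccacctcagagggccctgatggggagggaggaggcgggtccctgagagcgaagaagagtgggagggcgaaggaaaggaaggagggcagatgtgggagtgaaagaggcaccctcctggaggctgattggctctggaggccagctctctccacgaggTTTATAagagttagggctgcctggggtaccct
Il6: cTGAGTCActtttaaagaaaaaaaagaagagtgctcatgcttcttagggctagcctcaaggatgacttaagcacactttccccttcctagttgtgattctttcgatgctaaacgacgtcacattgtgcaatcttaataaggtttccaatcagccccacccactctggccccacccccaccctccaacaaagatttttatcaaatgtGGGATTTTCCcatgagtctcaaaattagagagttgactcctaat
The *Il6* window held an AP-1 match at bases 2 to 8 and an NF-kB match at bases 207 to 216, counted from its 5′ end, and the *Tnfsf11* window held a TATA match on the opposite strand at bases 219 to 224. No motif was shared by both windows, and no match overlapped another. Among 32851 RefSeq windows of the same length, 6.75% held the AP-1 letters, 1.41% the NF-kB letters, 14% the RUNX letters, and 12.4% the TATA letters. A match describes the letters and is not a binding site.

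*Tnfrsf11a* and *Csf1r*, the receptors through which a precursor receives RANKL and CSF1, were low in every library. *Tnfrsf11a*, the gene of RANK (chromosome 1, 107677300 to 107744558), measured 0.115 FPKM (PF), 0.0905 (SAG), 0.447 (COR), and 0.0371 (GP), or about 10, 17, 75, and 6 fragments. *Csf1r* (chromosome 18, 61265226 to 61291803) had 0.0593 (PF), 0.191 (SAG), 0.797 (COR), and 0.250 FPKM (GP), or about 5, 34, 124, and 37 fragments. Both were highest in COR. The COR level of *Tnfrsf11a* was 3.87 times that of PF (1.99 to 8.40) and 4.94 times that of SAG (2.89 to 8.92), and that of *Csf1r* was 13.4 times PF (5.60 to 42.1) and 4.16 times SAG (2.83 to 6.28), in FPKM with exact binomial intervals. Neither gene reached the 1 FPKM needed to be counted in a comparison. Of 13 receptors and adaptors of the precursor, 8 stayed below 1 FPKM in every library, and 5 reached it. *Traf6*, the adaptor of RANK, measured 2.59 to 4.84 FPKM, the kinases *Src* and *Tec* 3.13 to 6.31 and 1.83 to 4.77, and *Vav3*, an exchange factor for small GTPases, 0.805 to 1.97. *Plcg2*, a phospholipase of immune receptors and the last of the 5, passed 3-fold for PF vs SAG, from 0.040 FPKM in PF to 4.39 in SAG.

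Markers of macrophages and monocytes did not follow those receptors. Of 16 such genes, 1 FPKM was reached by 4 (PF), 3 (SAG), 2 (COR), and 3 (GP), and their summed FPKM was 38.7, 16.2, 7.90, and 23.3. COR, where *Csf1r* and *Tnfrsf11a* were highest, had the lowest sum. *Lyz2*, the lysozyme gene, accounted for most of the PF sum at 30.2 FPKM, compared with 7.53 (SAG), 4.15 (COR), and 7.06 (GP). *Ptprc*, the gene of CD45 by which blood cells were gated out, was at 0.568 FPKM in PF and at 0.057 or less in the other libraries. *Cd14*, a monocyte receptor that other cells also make, and *Laptm5*, a lysosomal gene of blood cells, were highest in GP, at 5.62 and 7.95 FPKM. *C1qb* was listed at 0 in all 4 libraries. *Tyrobp*, the adaptor of osteoclast precursors and macrophages, was also listed at 0 in each. A listed 0 can be a failed estimate, because *Sparc* and *Col1a1*, abundant matrix genes of bone, are listed at 0 in COR. *Col1a2*, at 8161 FPKM in PF, is listed at 0 in both COR and GP.

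*Nfatc1* (chromosome 18, 80802944 to 80909810) was expressed at a middle level in every library and varied the least of the genes that reached 1 FPKM. PF had 13.8 FPKM, SAG 18.0, COR 28.5, and GP 31.1. The order, GP, COR, SAG, PF, was that of *Tnfsf11*, although scaling to *Gapdh* turned GP vs COR to -0.088 and PF vs SAG to 0.14, over a range of 1.12 on the log2 scale compared with 4.33. No pair passed 3-fold, the largest ratio being 1.12 for GP vs PF, and COR had 2.07 times the FPKM of PF (exact binomial interval 1.94 to 2.21). NFATC1 is also used outside the osteoclast lineage. *Fos*, an AP-1 subunit needed for osteoclast formation and induced by many stimuli, was at 2298 FPKM in SAG and at 115 to 327 elsewhere. *Spi1*, the myeloid transcription factor that precedes *Nfatc1* in osteoclast precursors, was at 0.117 FPKM or below in every library.

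*Ctsk* (chromosome 3, 95303208 to 95313284), the gene of cathepsin K, the collagen-degrading protease of the osteoclast, was the most abundant of the 10 genes in every library. PF had 549.9 FPKM, SAG 229, COR 476, and GP 576. PF, COR, and GP lay within 0.28 of each other on the log2 scale, GP above PF by 0.067, which scaling to *Gapdh* turned to -0.40, and SAG was below them by 1.05 to 1.33. By level it ranked 135 (PF), 323 (SAG), 149 (COR), and 122 (GP). *Ctsk* is also known as a marker of periosteal mesenchymal cells. *Csf1* and *Ctsk* had in common that SAG was the single low library.

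*Acp5* (chromosome 9, 21931175 to 21940190), the gene of tartrate-resistant acid phosphatase, the histochemical stain of osteoclasts, had PF as its highest library. PF had 69.1 FPKM, SAG 14.3, COR 30.5, and GP 27.1. PF vs SAG passed 3-fold, with PF at 4.84 times the FPKM of SAG (exact binomial interval 4.44 to 5.28). The log2 ratio was 1.15 for PF vs COR and -1.32 for GP vs PF. COR and GP differed by 0.17. PF was also the library with the highest macrophage sum, most of it *Lyz2*, and the highest *Ptprc*, at 0.568 FPKM. The macrophage markers that reached 1 FPKM in some library did not all move together. *Lyz2*, *Cd68*, *Cd53*, and *Coro1a* were highest in PF, while *Cd14* and *Laptm5* were listed at 0 there. *Csf1r* was lowest in PF. The erythroid markers of PF summed to 15.6 FPKM, compared with 1.81 to 1.93 in the other libraries. All 4 lymphocyte markers were below 1 FPKM in every library. The 5 endothelial markers summed to 4.30 FPKM in PF, with SAG highest at 16.9, most of it *Kdr* at 14.9. The other endothelial markers were below 1 FPKM in SAG. Of them, *Pecam1* and *Cdh5* were highest in PF, *Tek* in SAG, and *Emcn* in GP. The part of blood-derived cells in the *Acp5* value was not tested.

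*Calcr* (chromosome 6, 3635677 to 3714713), the calcitonin receptor of the mature osteoclast, was near 0 throughout. PF had 0.0286 FPKM, SAG 0.142, and GP 0.0343, about 2, 20, and 4 fragments, and the gene was listed at 0 in COR. *Ctsk* and *Acp5* were thus measured at 14.3 FPKM or more in libraries where *Calcr* did not reach 1 FPKM.

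Counted over all pairs of libraries, few of the 10 genes passed 3-fold. Between PF and SAG 1 of 6 counted genes passed, *Acp5*, beside 15.7% of all genes counted (6.64% with PF higher, 9.04% with PF lower). For PF vs COR 1 of 6 passed, *Tnfsf11*, beside 11.7% of all genes (6.81% higher and 4.87% lower in PF), and between COR and SAG 1 of 6, *Tnfsf11* again, beside 9.25% (3.11% higher and 6.15% lower in COR). GP vs PF gave 3 of 7, *Tnfsf11*, *Tnfrsf11b*, and *Il6*, all higher in GP, beside 12% of all genes (6.24% higher and 5.72% lower in GP). GP vs SAG gave 2 of 7, *Tnfsf11* and *Il6*, beside 8.66% (3.86% higher and 4.8% lower in GP). GP vs COR gave 1 of 7, *Tnfrsf11b*, beside 4.4% (3.2% higher and 1.2% lower in GP). With so few genes counted, the shares within the sutures are near those of all genes. The median log2 ratio of the counted genes ran from 0.12 for PF vs COR and 0.45 for PF vs SAG to 1.05 for COR vs SAG, 1.12 for GP vs PF, and 1.17 for GP vs SAG, with GP vs COR at 0.28, while that of all genes lay between -0.03 and 0.05. These medians depend on the filter. Against PF, *Tnfsf11* was counted through the other library alone, and *Il6* was counted through GP alone in every pair. The 5 genes at 1 FPKM or more in both GP and PF had no common direction. They lay at 1.75 (*Tnfrsf11b*), 1.12 (*Nfatc1*), 0.067 (*Ctsk*), -0.18 (*Csf1*), and -1.32 (*Acp5*). The comparisons share libraries and are not independent of each other.

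**Figure D3:**
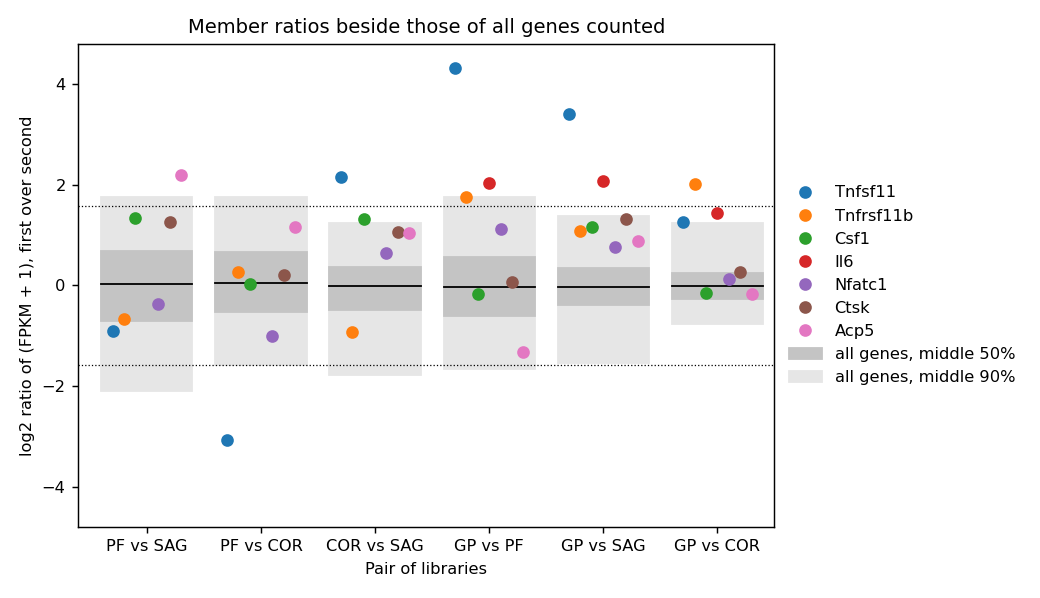
log2 ratio of (FPKM + 1) of the 7 genes that reached 1 FPKM, for each pair of libraries, first over second; grey boxes hold the inner ranges of all genes counted that the legend names, black lines their medians, and dotted lines mark 3-fold. *Tnfsf11* stands farthest from 0 for GP vs PF (4.33), GP vs SAG (3.41), PF vs COR (-3.08), and COR vs SAG (2.16).

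The wider set of resorption and fusion genes divided the same way. Of 17 genes, 13 reached 1 FPKM in at least 1 library. Those at 5 FPKM or more in every library besides *Ctsk* and *Acp5* were *Mmp9* and 5 genes with a role in acid or chloride transport, *Atp6v1c1*, *Tcirg1*, *Clcn7*, *Ostm1*, and *Slc4a2*, which many cell types use at some level. The other 4, *Calcr*, *Ocstamp*, *Atp6v0d2*, and *Siglec15*, which mark or build the multinucleated osteoclast, were below 1 FPKM in every library, the highest value among them being 0.296. *Dcstamp*, needed for fusion of precursors, was at 2.07 FPKM in PF, at 0.019 in GP, and listed at 0 in SAG and COR.

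Single genes of the resorption set differed by tissue. *Mmp9*, a gelatinase of osteoclasts and of hypertrophic cartilage, measured 10.2 FPKM (PF), 301 (SAG), 29.9 (COR), and 154 (GP). *Car2*, carbonic anhydrase, was at 0.504, 21.2, 1.85, and 3.63 FPKM. Both had SAG as the highest library, the opposite of *Ctsk*, *Acp5*, and *Csf1*. *Tcirg1*, a subunit of the osteoclast proton pump, was at 32.5 FPKM in PF and at 8.66, 13.0, and 12.6 in SAG, COR, and GP, the same order of libraries as *Acp5*. *Itgb3*, the partner of CD51 in the osteoclast vitronectin receptor, was at 1.20 and 1.01 FPKM in PF and SAG and at 5.86 and 4.85 in COR and GP. In this list 3 genes were higher and 2 lower in PF vs SAG, out of 13 counted, beside 6.64% and 9.04% of all genes. The median log2 ratio was 0.13, beside 0.03 over all genes. Of the genes past 3-fold, *Dcstamp* was counted through PF alone and *Car2* through SAG alone. The shares therefore depend on the filter and are not read as an excess.

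**Figure D4:**
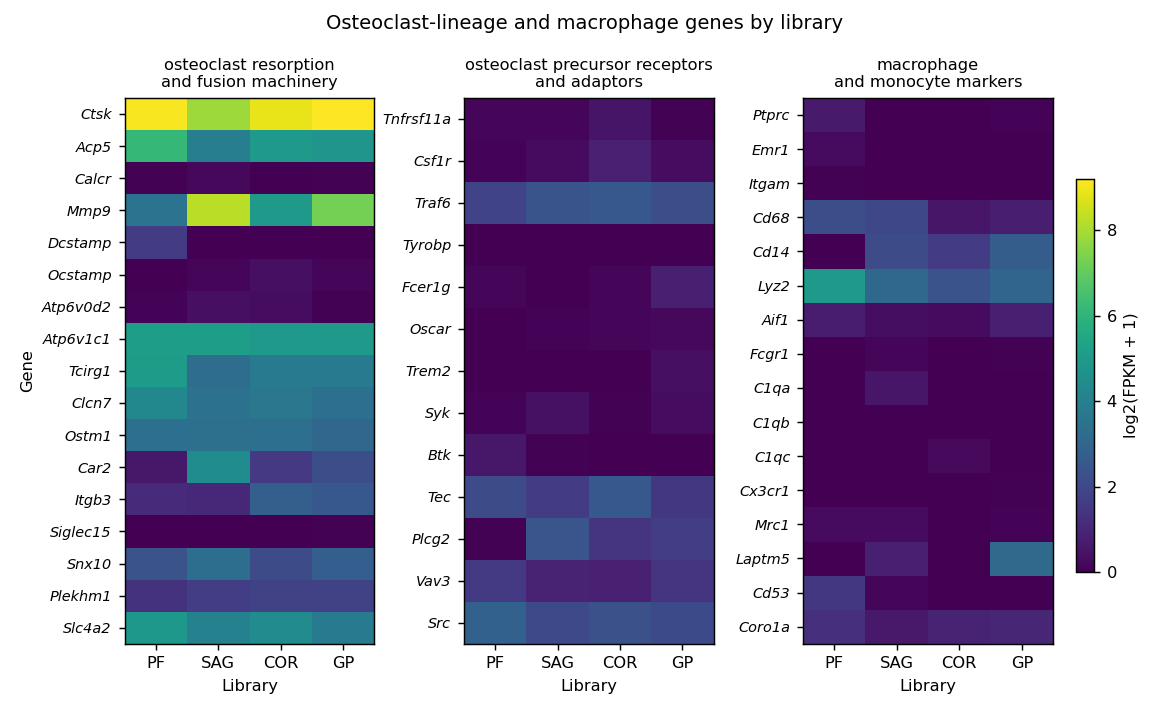
Heat maps of log2(FPKM + 1) in the 4 libraries for genes of resorption and fusion, receptors and adaptors of the osteoclast precursor, and markers of macrophages and monocytes (*Emr1* is a macrophage surface receptor), all on the same colour scale. *Ctsk* (229 to 576 FPKM) and *Mmp9* (10.2 to 301) are bright, while *Calcr*, *Siglec15*, *Tyrobp*, and *C1qb* are dark in every library.

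Of 11 ligands that promote osteoclast formation, *Tnfsf11*, *Csf1*, and *Il6* included, 5 reached 1 FPKM in at least 1 library, and *Il17a* was listed at 0 in all. *Il34*, the second ligand of CSF1R, measured 7.75 FPKM (PF), 2.86 (SAG), 5.83 (COR), and 4.21 (GP), with SAG lowest as for *Csf1*. *Il11*, a cytokine of the interleukin-6 family, was at 3.95, 0.212, 0.458, and 17.8 FPKM, past 3-fold for GP vs each suture and for PF vs each other suture. *Tnf*, *Il1a*, *Il1b*, and *Osm*, ligands made mainly by blood cells, were below 1 FPKM in every library. The median log2 ratio over the counted ligands was 1.92 for GP vs PF, over 5 genes, beside -0.03 over all genes. Of these, *Tnfsf11* and *Il6* were counted through GP alone. *Il11* was higher in GP, while *Il34* and *Csf1* (24.4 FPKM in PF, 21.5 in GP) were lower there. The median is therefore not a shift shared by the ligands.

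Receptors for the interleukin-6 family were in part highest in PF. *Il11ra1*, the receptor of interleukin-11, measured 548 FPKM (PF), 78.7 (SAG), 128 (COR), and 143 (GP). *Cntfr*, the receptor of ciliary neurotrophic factor, was at 82.6, 10.01, 2.22, and 0.588 FPKM. *Il6st*, the shared signalling chain gp130, was at 42.1 FPKM in PF and 16.9 to 18.7 in the other libraries. *Il6ra*, which binds interleukin-6 itself, stayed at 0.256 FPKM or below. *Il11ra1* and *Cntfr* were past 3-fold higher in PF than in each other library. For PF vs COR they were 2 of 8 genes counted in this list, beside 6.81% of all genes higher in PF. Other genes of the list had another highest library. *Lifr* was highest in COR (19.3 FPKM, 13.3 in PF) and *Osmr* in GP (3.01, 2.63 in PF). *Socs3* was past 3-fold lower in PF (24.3 FPKM) than in SAG (292).

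Among factors that restrain osteoclasts, 5 of 7 reached 1 FPKM in at least 1 library. *Sema3a*, a semaphorin that restrains osteoclast formation, measured 14.0 FPKM (PF), 1.19 (SAG), 7.46 (COR), and 12.4 (GP), past 3-fold between SAG and each other library. *Wnt16*, a Wnt ligand that raises osteoprotegerin in bone, was at 2.39, 0.273, 0.400, and 19.7 FPKM. Its highest library, GP, was also that of *Tnfrsf11b*, but the order of the sutures differed. *Wnt16* was higher in PF than in SAG, and *Tnfrsf11b* was lower (5.26 FPKM in PF, 8.94 in SAG). *Sfrp1*, a Wnt antagonist, was at 23.7 FPKM in PF and 5.23 in COR, past 3-fold, with SAG and GP at 16.7 and 16.8. *Lgr4*, a further receptor of RANKL, was at 5.16 to 10.9 FPKM and passed 3-fold in no pair.

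Chemokines that draw osteoclast precursors were highest in PF. *Cxcl12* measured 773 FPKM (PF), 210 (SAG), 93.0 (COR), and 108 (GP). *Ccl7* was at 39.9 FPKM in PF and at 9.68, 5.42, and 8.08 in the others. *Ccl2*, the monocyte chemoattractant, measured 17.1 FPKM (PF), 1.17 (SAG), 2.16 (COR), and 11.1 (GP). *Cx3cl1*, or fractalkine, was at 9.88, 5.52, 2.30, and 1.12 FPKM. All 4 counted genes were past 3-fold higher in PF than in COR, where 6.81% of all genes were, and 3 of 4 were higher in PF than in SAG, where 6.64% were. The median log2 ratio was 2.60 for PF vs COR and 1.91 for PF vs SAG, beside 0.05 and 0.03 over all genes. *Ccl9* was below 1 FPKM in every library.

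Receptors and enzymes through which hormones and prostaglandins induce *Tnfsf11* also differed between the libraries. *Pth1r*, the receptor of parathyroid hormone, measured 106 FPKM (PF), 37.0 (SAG), 380 (COR), and 241 (GP). COR and GP, the libraries with the most *Tnfsf11*, were the highest, and PF was above SAG. *Vdr*, the vitamin D receptor, was at 12.6, 1.74, 19.6, and 9.87 FPKM. *Ptgs2*, the inducible cyclooxygenase, measured 0.193 FPKM (PF), 2.80 (SAG), 3.79 (COR), and 12.0 (GP), the order of *Tnfsf11*. *Ptger4*, a receptor of prostaglandin E2, reached 1 FPKM in GP alone, at 2.49.

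**Figure D5:**
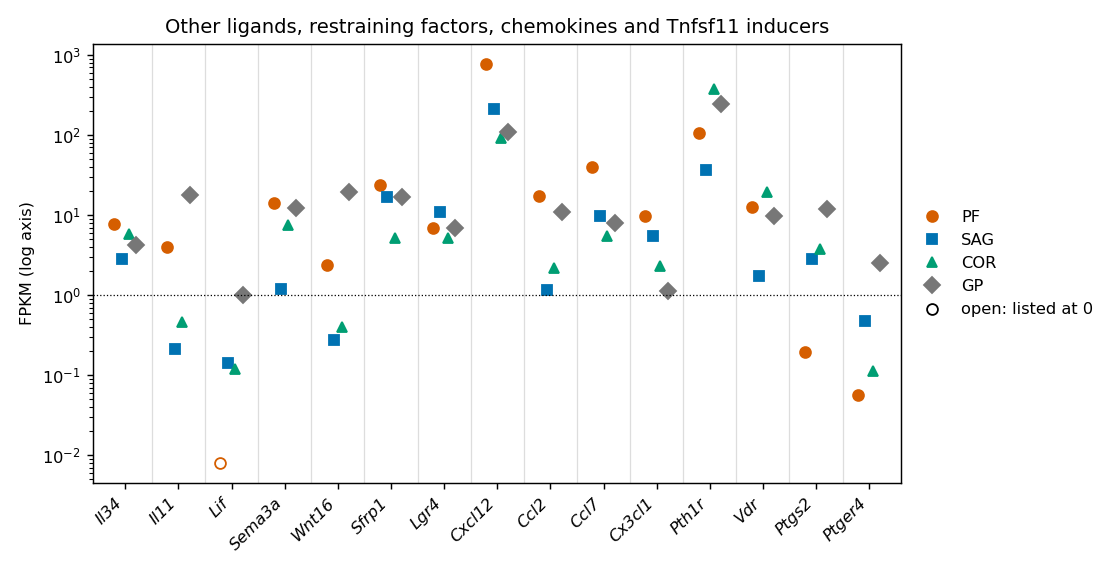
FPKM on a log axis of other ligands, restraining factors, chemokines, and inducers of *Tnfsf11*, with 1 point per library; the dotted line marks 1 FPKM, and an open point marks a gene listed at 0. *Cxcl12*, *Ccl2*, *Ccl7*, and *Cx3cl1* are highest in PF, and *Ptgs2* runs from 0.193 in PF to 12.0 in GP.

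Of 15 coupling factors that pass between osteoclasts and bone-forming cells, 12 reached 1 FPKM in at least 1 library. *Cthrc1*, a secreted collagen-triple-helix protein, was the most abundant, at 758 FPKM (PF), 817 (SAG), 1401 (COR), and 842 (GP). *Tgfb1*, released from resorbed matrix, was at 2.63, 6.002, 30.2, and 8.92 FPKM, and COR was past 3-fold above each other library. *Wnt10b*, a Wnt ligand that promotes bone formation, was listed at 0 in PF and measured 0.203 (SAG), 6.70 (COR), and 1.60 FPKM (GP). *Slit3*, a guidance ligand, was at 18.2, 4.62, 17.2, and 9.53 FPKM, with SAG lowest. *Ephb4*, the receptor of the ephrin-B2 pathway, was at 39.0 FPKM in PF and 17.0 to 20.9 in the other libraries, and *Efnb2*, its ligand, at 2.56 to 4.85. Between PF and SAG 1 of 11 counted factors passed 3-fold, *Slit3*, beside 15.7% of all genes. For PF vs COR 2 of 12 passed, *Wnt10b* and *Tgfb1*, beside 11.7%. For COR vs SAG 3 of 12 passed, *Slit3*, *Wnt10b*, and *Tgfb1*, all higher in COR. Of all genes 9.25% passed for that pair (3.11% higher and 6.15% lower in COR). In both pairs *Wnt10b* was counted through COR alone, so these counts depend on the filter.

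The genes whose pattern over the 4 libraries lay nearest to that of *Tnfsf11* were *Hpgd*, *Anxa8*, and *Tnfaip6*, by Euclidean distance of mean-centred log2(FPKM + 1) values among 9802 genes at 5 FPKM or more in some library. *Hpgd*, the prostaglandin-degrading dehydrogenase, measured 5.94 FPKM (PF), 11.5 (SAG), 40.4 (COR), and 77.2 (GP), at a distance of 0.68. *Tnfaip6*, a hyaluronan-binding secreted protein, was at 3.02, 6.27, 59.4, and 114 FPKM, at a distance of 0.74. The gene nearest to *Tnfrsf11b* was *Acan*, the proteoglycan of cartilage, at 23.3, 25.9, 15.6, and 59.0 FPKM, at a distance of 0.40. The gene nearest to *Acp5* was *Numbl*, at 67.9, 15.4, 32.1, and 27.2 FPKM, at a distance of 0.10. The gene nearest to *Il6* was *Afap1l2*, at 2.58, 2.42, 3.63, and 14.5 FPKM, at a distance of 0.22. Distances over 4 libraries describe these values alone.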

How the data were processed

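Bulk RNA-seq of double-sorted CD51+;CD200+ cells gave 1 library per tissue. The authors amplified cDNA with a low-input kit, mapped paired-end reads to mouse mm9 with STAR 2.5.1b, and ran Cuffdiff of Cufflinks 2.2.1 against the iGenomes annotation from Illumina. Each deposited table gives 1 FPKM value for a symbol. How Cuffdiff scaled the libraries is not given in the sources used here. Low-input amplification and a missing sequencing depth limit the precision of low values.

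A gene was counted in a pair where either library reached 1 FPKM, with a pseudocount of 1. Fragments were estimated as FPKM times transcript length (GENCODE annotation of mm9) over the smallest step found in 8428 genes with a single coding transcript. Exact Poisson and exact binomial (Clopper-Pearson) intervals at 95% were computed from the estimated fragments. All 139 genes of the 16 lists were found by symbol, and the counts over the list of transcription factors are not reported here. The genes and lists were chosen with earlier results of these data known. The genes named were the 10 given, list genes past 3-fold or named by role beside them, marker genes whose level stood beside them, and the nearest patterns for 4 of the 10 genes. The alternatives were another pseudocount, 3 scalings, other floors, a 2-fold threshold, and no pseudocount. The ratio and the 3-fold call were tested on simulated data, with changes placed in well-expressed genes only. The fragment estimates, the intervals, and changes at low levels were not covered by that test. Versions were numpy 2.4.6, scipy 1.17.1, pandas 2.3.3, and matplotlib 3.10.9 under Python 3.11.15.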

Additional observations from a re-analysis of the deposited data

How the results depend on the processing

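No paired analysis was possible because only a single library represents each tissue, and for the same reason no library could be left out. Counts of the 10 genes past 3-fold moved as follows. With a pseudocount of 0.1 there were 2 for PF vs SAG (*Tnfsf11* added) and 2 for GP vs COR (*Il6* added). With FPKM of 1 or more in both libraries there were 0 for PF vs COR, 1 for GP vs PF, and 1 for GP vs SAG, since *Tnfsf11* in PF and *Il6* in the sutures are below that floor. With FPKM of 5 or more in 1 of the libraries there were 1 for GP vs SAG and 2 for GP vs PF (*Il6* lost in both). At 2-fold there were 3 for PF vs COR, 3 for PF vs SAG, 4 for COR vs SAG, 5 for GP vs PF, 5 for GP vs SAG, and 3 for GP vs COR. Relative to *Gapdh* there were 3 for PF vs SAG (*Csf1*, *Ctsk*, *Acp5*), and the 3 for GP vs PF were *Tnfsf11*, *Acp5*, and *Il6*. That scaling shifted the median of all genes by 0.47 for PF vs SAG and -0.42 for GP vs PF in log2, and it reversed the ratio of *Ctsk* for GP vs PF to -0.40 and those of *Nfatc1* to 0.14 for PF vs SAG and -0.088 for GP vs COR. With a pseudocount of 1 the *Tnfsf11* to *Tnfrsf11b* ratio was 0.181 in PF and 0.215 in SAG. Median-ratio scaling and quantile normalization kept the direction and the 3-fold call of all 39 ratios run. Without a pseudocount, an alternative chosen after seeing the data, 37 of 39 did so, and 2 passed 3-fold that had not. Where no reason is given, the cause was not tested. PF was the shallowest library, which limits the *Tnfsf11* and *Il6* values there.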
